A study of Mus musculus with 2 samples.

Results

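Notch signalling passes between touching cells. A ligand of the Jagged or Delta-like family on one cell binds a Notch receptor on its neighbour, the receptor is cleaved, and its intracellular domain enters the nucleus, where it joins the DNA-binding protein RBPJ and turns on genes such as those of the Hes and Hey families. Without the intracellular domain RBPJ holds corepressors at its sites. In the developing urinary tract the pathway is known for roles in nephron patterning, in blood vessels and in smooth muscle.

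The genes described here are Rbpj, the 4 Notch receptor genes (Notch1, Notch2, Notch3 and Notch4) and the 5 genes of canonical ligands (Jag1, Jag2, Dll1, Dll3 and Dll4). They were chosen by name, and every array probe that the deposited files assign to one of them was taken, which gave 15 probes for 10 genes out of 39429 probes for 30011 gene names. A total of 13 of these probes, covering all 10 genes, were bright enough to be tested. The remaining probes, the dimmer ones of Notch1 and Dll1, were well above background on at most 1 of 4 spots in any RNA.

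RNA came from ureters of NMRI mouse embryos at E14.5. Rbpj-cKO embryos carried the genotype Tbx18(cre/+);Rbpj(fl/fl), so that Cre recombinase made from the Tbx18 locus removes Rbpj in the lineage of Tbx18-expressing cells, chiefly the mesenchyme around the ureteric epithelium, and leaves it in cells outside that lineage. Control embryos were Rbpj(fl/?), with the other allele not specified and no Tbx18 allele listed. Each of 2 two-colour arrays held both genotypes, male embryos on replicate 1 with Rbpj-cKO in the red dye AlexaFluor647 and female embryos on replicate 2 with Rbpj-cKO in the green dye AlexaFluor555. There were therefore 4 RNA samples, 1 for each genotype and sex, and sex and dye orientation changed together. Neither the number of embryos in an RNA sample nor the part of Rbpj that is floxed is given in the labels. Whether the replicates were separate litters is not stated. The p-values and intervals cover these 2 arrays only. They rest mainly on a variance estimated over all probes tested (1 residual and 6.19 prior degrees of freedom), and less on the spread of a probe's own 2 ratios.

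Both arrays had between 67.7% and 70.1% of their spots well above background per genotype. Markers of the ureteric mesenchyme (9 of 9 genes), visceral smooth muscle (6 of 6) and urothelium (12 of 12) were bright enough to be tested, as were 20495 of all 30011 gene names. Lists of other tissues passed nearly as fully, such as nephron and ureteric bud (8 of 8) and skeletal muscle (8 of 9). These counts therefore do not check the dissection. Tbx18 itself had log2 ratios of Rbpj-cKO over control of 0.17 and -0.24. Across all 26980 probes tested, the ratios of the arrays ran in opposite directions after the dyes had been turned as labelled (Pearson's r = -0.365 across probes, which are not independent). Before turning, red over green therefore tended to run the same way on both arrays. Of these probes, 31.0% had the same sign on both arrays after turning, so a change of sign was common. Sex and dye orientation changed together and cannot be told apart in any such change, here or below. The female Rbpj-cKO sample carried a signal of the Y-linked genes Ddx3y and Eif2s3y equal to 8.04% and 8.94% of that in male Rbpj-cKO, against 0.119% and 0.482% for the controls. These percentages set signals of different arrays beside each other without scaling. The dimmer Y-linked genes Uty and Kdm5d were not well above background in either female sample. Marker lists of blood and body muscle changed sign between the pairs. Erythroid genes (7 of 8 with opposite signs) had log2 ratios of summed signals of 0.63 in the male and -0.93 in the female pair, and skeletal muscle genes (8 of 8 with opposite signs) 0.53 and -1.21. Macrophage genes had 0.44 and 0.043, with 5 of 8 higher in both pairs, where 15.4% of all probes tested were. Member probes with a higher male and a lower female ratio, such as those of Notch4 and Jag2, go the same way as the erythroid and skeletal muscle lists, whose part in them was not tested. Dll4 had a male ratio of 0.013 and was lower on both arrays in 4 of 7 computations of the ratios. For these reasons member ratios are given for each array. Ratios are log2 of Rbpj-cKO over control after background correction and loess normalization, with replicate 1 first. Levels are the scanner software's processed signals on a linear scale, as the mean ± SD of the spots of a probe. They were not scaled across arrays. For 1 probe they can be compared between the genotypes on an array, but not directly between the arrays, and not between probes.

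Both Rbpj probes lie on chromosome 5 (mm9, plus strand), the brighter at chr5:54048503-54048562 and 5408 bases into the transcript, the dimmer at chr5:54044777-54044836 and 1682 bases into it. They are shown because the Rbpj values below were read with them, and they start 3726 bases apart. The dimmer probe is given whole and the brighter by its first 30 bases, 5′ to 3′ as in the array files, with no part set in capitals.
Rbpj dimmer probe: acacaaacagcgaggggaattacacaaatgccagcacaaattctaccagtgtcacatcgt
Rbpj brighter probe, first 30 bases: tttgtagaaaaaggaatctgctcaattcca
No other probe on the array shared a run of 20 bases with any of the 15 probes on either strand. Rbpj has pseudogene copies in the mouse genome, and RNA from such copies could bind these probes as well. Their place relative to the floxed exons was not used here.

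Rbpj, the gene of the factor that carries the cleaved receptor on DNA, was lower in Rbpj-cKO than in control ureters of both sexes. With the brighter probe, the male samples had signals of 831 ± 32.5 (SD, n = 4 spots) in Rbpj-cKO and 1851 ± 55.9 in control. The female samples had 773 ± 20.6 in Rbpj-cKO and 1199 ± 35.6 in control. The Rbpj-cKO samples were the lower ones in both pairs, and no spot of one genotype overlapped the other on its array. Spots of a probe are repeats of 1 RNA on an array. Here and below, their overlap therefore reflects measurement error and not the spread between embryos, and it was not counted over all probes. The log2 ratios were -1.13 and -0.63, so that 45.8% and 64.6% of the control signal remained, with a mean of -0.88 ± 0.35 (SD, n = 2 arrays).

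The dimmer Rbpj probe showed a smaller difference. Its signals were 53.5 ± 2.29 in Rbpj-cKO and 85.0 ± 1.80 in control of the male pair, and 45.5 ± 3.38 and 63.4 ± 2.05 in the female pair. Again no spots of the genotypes overlapped. The log2 ratios were -0.48 and -0.37, which is 71.8% and 77.6% of control, with a mean of -0.42 ± 0.079 (SD, n = 2). These ratios include an offset of 50 added in background correction, which is large beside the signals of this probe and draws its ratio towards 0. From the processed signals themselves the ratios were -0.67 and -0.48, a mean of -0.57. At an offset of 10 the mean was -0.50. The means of the Rbpj probes thus lay 0.46 apart in the main analysis, a gap that depends on the offset. From the processed signals the means were -0.89 for the brighter and -0.57 for the dimmer probe. In bulk RNA, a smaller share of cells with Rbpj transcript and less transcript per cell cannot be told apart.

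The brighter Rbpj probe varied more among controls than among Rbpj-cKO samples. On a log2 scale made comparable across arrays, male and female control stood at 12.46 and 12.06, a difference of 0.40, and male and female Rbpj-cKO at 11.34 and 11.43, a difference of -0.10. The dimmer probe had differences of 0.063 in control and -0.049 in Rbpj-cKO. With 1 sample of each kind these differences were not tested, and dye and sex cannot be told apart in them.

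Rbpj was among the lowest genes by ratio. By the mean of its brighter probe it was the 9th lowest of 20495 genes, 8th on replicate 1 and 292nd on replicate 2. It was the member at least 1.5-fold lower on both arrays, 1 of 13 member probes, where 0.0556% of all probes tested met that rule, and no member was at least 1.5-fold higher on both, where 0.104% of all probes were. In the limma fit across all probes, neither Rbpj probe passed after Benjamini-Hochberg adjustment (limma adjusted p = 0.713 for the brighter and 1 for the dimmer), and 0% of all probes had an adjusted p under 0.05. Before adjustment the limma fit gave 0.000872 for the brighter probe and 0.0154 for the dimmer, both under the 0.05 that 0.508% of all probes passed on the lower side. The 3 named genes whose pair of ratios lay nearest to that of Rbpj, by Euclidean distance over both arrays among 15375 genes, were Nyap1 (-0.88 and -0.63, distance 0.247), Clec2d (-1.05 and -0.30, distance 0.338) and Colq (-0.83 and -0.81, distance 0.346). Likeness over 2 arrays rests on few values, and the other probe of Colq had a mean of -0.18.

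**Figure D1:**
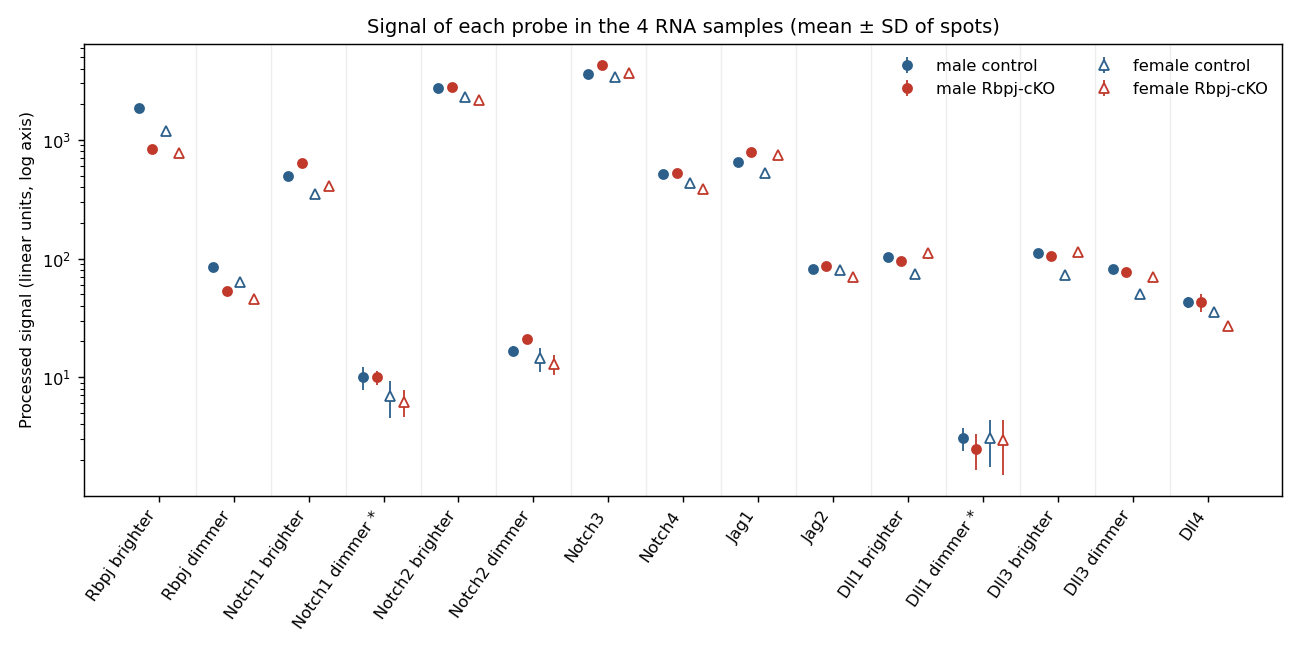
Processed signal (log axis) of the 15 probes in the 4 RNA samples, filled circles for male and open triangles for female samples, blue for control and red for Rbpj-cKO, with bars for the SD of the spots and a star for probes too dim to be tested. The red points of the brighter Rbpj probe, at 831 and 773, lie below the blue ones at 1851 and 1199, while those of Jag1, at 794 and 743, lie above controls at 655 and 527. Male and female signals come from different arrays and were not scaled to each other.

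Among the receptors, the brighter probe of Notch1 and the probe of Notch3 read higher in Rbpj-cKO on both arrays, and Notch2 and Notch4 did not go the same way on both. Notch receptors are single-pass membrane proteins. Notch1 and Notch4 are prominent in endothelium, Notch2 is widely expressed, and Notch3 is best known from vascular smooth muscle and pericytes. None passed the limma test after adjustment over all probes (limma adjusted p = 1 for every receptor probe tested).

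Notch1 was measured by its probe at chr2:26319440-26319499 (minus strand, 55% GC). Male Rbpj-cKO had a signal of 637 ± 51.5 (SD, n = 4 spots) and male control 498 ± 39.2, and the female samples had 406 ± 25.4 and 348 ± 28.9. The spots of the genotypes were apart in the male pair and overlapped in the female pair. The log2 ratio, which is taken within each spot, was 0.36 and 0.18, with a mean of 0.27 ± 0.12 (SD, n = 2) and a 95% limma interval from -0.05 to 0.59. The other Notch1 probe (chr2:26314630-26314689) had signals from 6.21 to 9.97 and was not well above background. It had ratios of -0.00078 and -0.037. With median centring in place of loess, the female ratio of the brighter probe was 0.00017.

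Notch3 (chr17:32257848-32257907, minus strand) had narrow spot errors. Its signals were 4309 ± 16.4 in Rbpj-cKO and 3608 ± 49.6 in control of the male pair, and 3651 ± 48.2 and 3368 ± 7.13 in the female pair, where 3 spots were used. The spots of the genotypes did not overlap on either array, and both Rbpj-cKO samples were above their controls. The ratios of 0.26 and 0.10 had a mean of 0.18 ± 0.12 (SD, n = 2; limma interval -0.14 to 0.50). With median centring they were 0.45 and -0.12, so the direction in the female pair depends on that choice.

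Notch2 was measured by probes at chr3:97953914-97953973 and chr3:97951233-97951292 (plus strand). The brighter gave 2776 ± 177 in male Rbpj-cKO, 2755 ± 182 in male control, 2188 ± 110 in female Rbpj-cKO and 2293 ± 114 in female control. Its spots overlapped between genotypes on both arrays. The ratios were 0.02 and -0.08, a mean of -0.03 ± 0.075 (SD, n = 2), with a limma interval from -0.35 to 0.28. The dimmer probe had signals from 12.9 to 21.2 and ratios of 0.18 and -0.05, the second with a spot SD of 0.195.

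Notch4 (chr17:34725120-34725179, plus strand) gave 531 ± 40.6 and 520 ± 28.7 in male Rbpj-cKO and control, and 384 ± 30.5 and 435 ± 29.3 in the female samples. Spots overlapped on both arrays. The ratios were 0.05 and -0.20, with a mean of -0.08 ± 0.18 (SD, n = 2; limma interval -0.40 to 0.25).

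The list of 14 endothelial markers had median ratios of -0.0033 and 0.0071, with 2 higher and 2 lower on both arrays. The summed signal of the list was 27098 in Rbpj-cKO and 26219 in control of the male pair, and 23015 and 22700 in the female pair. Cdh5, the cadherin of endothelial junctions, had 0.15 and -0.03, and Pecam1, an endothelial adhesion molecule, 0.21 and -0.49. The 7 genes of pericytes and vascular smooth muscle had medians of 0.071 and -0.042, with summed signals of 6020 against 5010 in the male pair and 4417 against 4667 in the female pair. The 6 visceral smooth muscle genes had medians of -0.057 and -0.32, with 3 lower and 1 higher in both pairs and none past the limma test after adjustment. Myocd, a coactivator of smooth muscle genes, had -0.67 and -1.04, the contractile genes Cnn1 and Actg2 had -0.29 and -0.31, and -0.16 and -0.34, and Tagln had 0.24 and 0.10. Acta2, the smooth muscle actin gene, had 0.52 and -0.77. All markers in these lists were bright enough to be tested, and the part of vessel content in the receptor values was not tested.

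**Figure D2:**
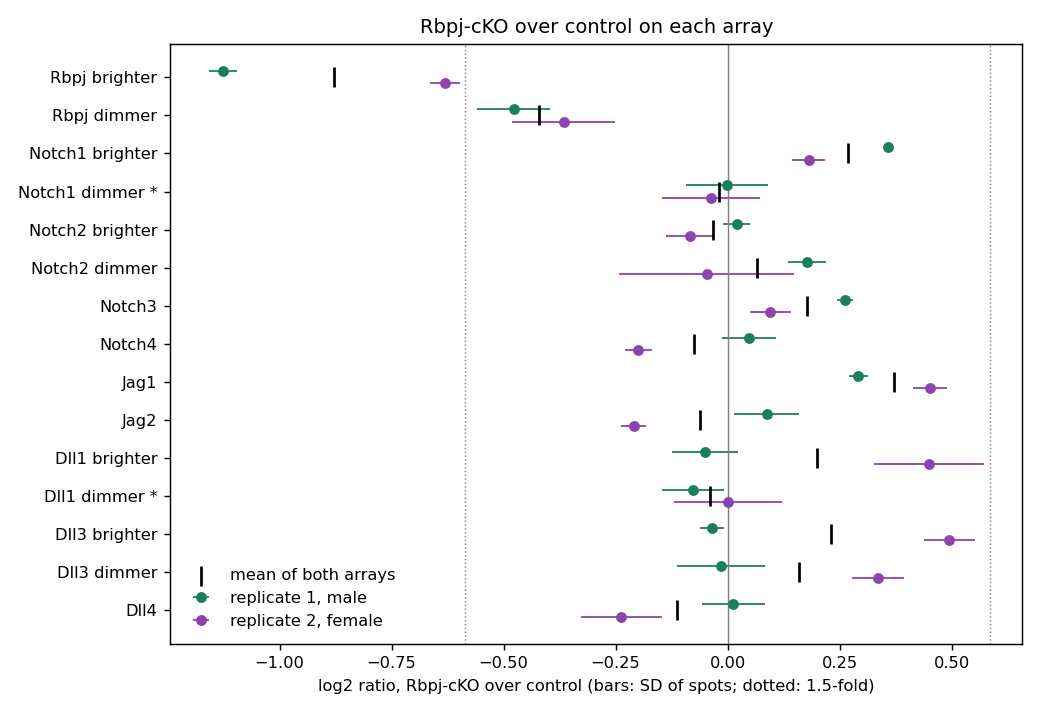
log2 ratio of Rbpj-cKO over control for each probe on replicate 1 (green) and replicate 2 (purple), with bars for the SD of the spots, black ticks for the mean of both arrays and dotted lines at 1.5-fold; starred probes were too dim to be tested. Both Rbpj probes lie left of 0 on both arrays, Jag1, Notch3 and the brighter Notch1 probe lie right of 0 on both, and the ligand genes Dll1 and Dll3 have high ratios on replicate 2 alone.

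Of the ligand genes, Jag1 was higher in Rbpj-cKO on both arrays, with the largest mean ratio over both arrays among the ligands and receptors higher on both, although on replicate 1 alone the brighter Notch1 probe had the larger ratio. Jag1 encodes a transmembrane ligand with a DSL domain and a cysteine-rich region, and is known from vessel walls. Its probe (chr2:136907433-136907492, minus strand, 36.7% GC) lies 5187 bases into the transcript. The signals were 794 ± 15.4 (SD, n = 4 spots) in Rbpj-cKO and 655 ± 12.7 in control of the male pair, and 743 ± 13.1 and 527 ± 18.3 in the female pair, with 3 spots used. The spots of the genotypes were fully apart on both arrays. The ratios were 0.29 and 0.45, with a mean of 0.37 ± 0.11 (SD, n = 2), which is 1.29-fold. Jag1 had an unadjusted limma p of 0.0276, under the 0.05 that 1.23% of all probes passed on the higher side. It did not pass after adjustment (limma adjusted p = 1, interval 0.05 to 0.69). Across arrays, the Rbpj-cKO samples stood at 11.31 and 11.41 and the controls at 11.02 and 10.96 on the log2 scale. Both genotypes therefore lay closer between the sexes than Rbpj-cKO lay to control.

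The other Jagged gene, Jag2, did not share this pattern. Its probe (chr12:114146887-114146946, minus strand) gave 85.8 ± 4.82 and 81.6 ± 6.46 in male Rbpj-cKO and control, with overlapping spots. In the female samples it gave 69.8 ± 2.04 and 80.7 ± 3.92, with spots apart and Rbpj-cKO lower. The ratios were 0.09 and -0.21, a mean of -0.06 ± 0.21 (SD, n = 2; limma interval -0.40 to 0.28).

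Dll1 and Dll3 differed between genotypes in the female pair and overlapped in the male pair. Dll1 encodes a ligand that activates Notch in neighbouring cells, whereas the Dll3 protein is known to act within the cell and not to activate the receptor. The brighter Dll1 probe (chr17:15504623-15504682, minus strand) gave 95.7 ± 4.39 in male Rbpj-cKO against 102 ± 9.02 in control, and 111 ± 11.9 in female Rbpj-cKO against 74.8 ± 4.51. Its ratios were -0.05 and 0.45, a mean of 0.20 ± 0.35 (SD, n = 2). The other Dll1 probe, matched to another transcript at chr17:15513726-15513785, had signals from 2.49 to 3.06, none well above background.

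Both Dll3 probes, at chr7:29078763-29078822 and chr7:29079061-29079120 (minus strand), gave the same picture as the brighter Dll1 probe. The brighter gave 105 ± 8.13 and 111 ± 9.72 in male Rbpj-cKO and control, and 114 ± 4.12 and 72.8 ± 5.12 in the female samples. The dimmer gave 77.6 ± 4.16 and 81.1 ± 2.74, and 69.6 ± 2.08 and 50.2 ± 4.46. Spots overlapped in the male pair and were apart in the female pair for both. Ratios were -0.04 and 0.50 for the brighter probe and -0.02 and 0.34 for the dimmer, and their means of 0.23 ± 0.38 and 0.16 ± 0.25 (SD, n = 2) lay within their spread between arrays. Across arrays, the female control was the lowest of the 4 samples for Dll1 (8.33 on the log2 scale, against 8.41 to 8.78) and for both Dll3 probes (8.36 against 8.57 to 8.85, and 7.97 against 8.26 to 8.31). With 1 sample of each sex and genotype, the difference between the pairs was not tested. With median centring the male ratios were 0.029 for Dll1 and 0.054 and 0.050 for Dll3.

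Dll4, a ligand known from sprouting and arterial endothelium, was measured by a probe at chr2:119160779-119160838 (plus strand). Male samples had 43.0 ± 7.33 in Rbpj-cKO and 42.8 ± 4.58 in control, with overlapping spots. Female samples had 27.2 ± 0.941 and 35.1 ± 3.25, with Rbpj-cKO lower and spots apart. The ratios were 0.01 and -0.24, a mean of -0.11 ± 0.18 (SD, n = 2; limma interval -0.44 to 0.22).

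Counted over the receptors, the ligands and Rbpj, 2 of 13 tested probes, both of Rbpj, were lower in both pairs, 3 were higher in both and 8 changed sign. Of all probes tested, 15.5% were lower and 15.4% higher on both arrays. The median ratio of the 13 probes was 0.021 on replicate 1 and -0.047 on replicate 2, beside 0.00022 and -0.00086 for all probes. The share of lower probes was near that of all probes, 3 higher probes are too few to set against it, and these counts give no result about the set.

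**Figure D3:**
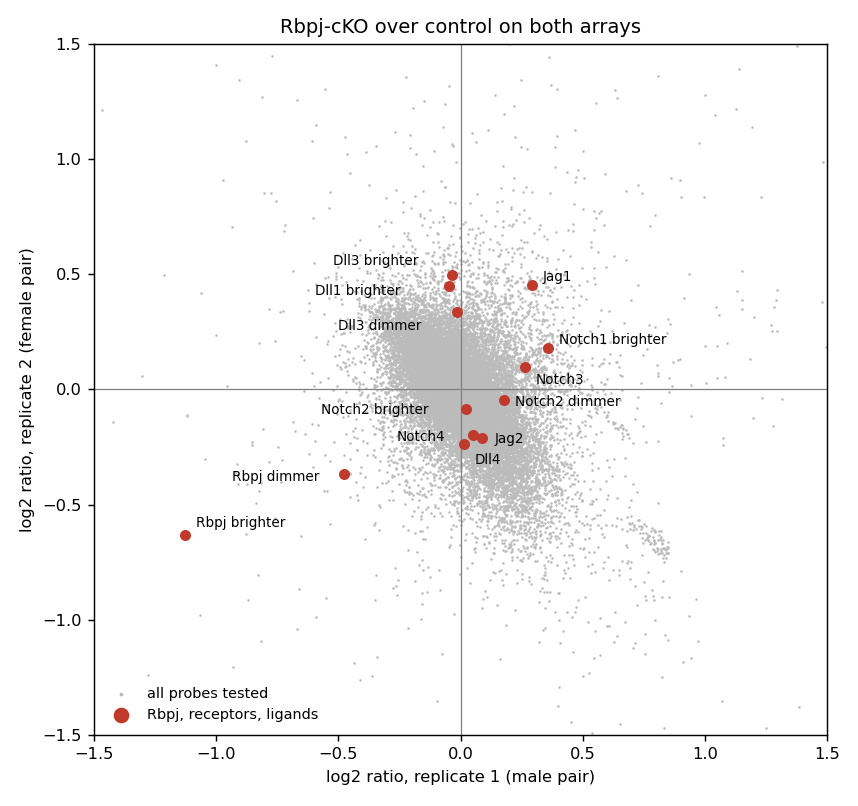
log2 ratio of Rbpj-cKO over control on replicate 1 (x axis) against replicate 2 (y axis) for 26980 probes in grey, of which 47 lie beyond the axes, with the 13 tested probes of Rbpj, receptors and ligands in red. The grey cloud runs from upper left to lower right, and the brighter Rbpj probe lies apart from it at -1.13 and -0.63.

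The rest of the pathway was followed through 6 lists with 63 tested genes, 1 probe each. None of these genes had a limma adjusted p under 0.05. Of the 63, 10 read higher in Rbpj-cKO in both pairs, 7 read lower in both, and 46 changed sign between the pairs, with medians of 0.031 and 0.00072. Among all probes tested, 31.0% had the same sign in both pairs. The target genes Hey1 (0.81 and 1.36) and Hey2 (0.86 and 0.92), 2 of 63, exceeded 1.5-fold in both pairs, both higher under every scaling tried, with limma adjusted p of 0.376 and 0.325. Of all probes tested, 0.104% were at least 1.5-fold higher on both arrays. Hey1 and Hey2 encode basic helix-loop-helix repressors.

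The target list as a whole, 7 genes, had 2 higher and 5 opposite, with medians of 0.077 and 0.48. Hes1, a repressor that the pathway induces in many tissues, had -0.24 and 0.48, and Heyl, the third Hey gene, -0.47 and 0.11. Hes5, another Hes gene of the list, had -0.065 and 1.24. Nrarp, an inhibitor of the Notch transcription complex, had 0.08 and -0.25. Among the 10 genes that mature ligands and receptors (the Fringe, Mind bomb and Neuralized genes and others), 0 read higher and 2 read lower in both pairs, with ratios from -0.18 to 0.83 on replicate 1 and from -0.69 to 0.24 on replicate 2. Both 0.83 and -0.69 belong to Neurl1b, a ubiquitin ligase gene. The 8 genes of receptor cleavage, which include the presenilins, had ratios from -0.11 to 0.20 and from -0.22 to 0.24, with 1 higher and 0 lower. The 20 coactivators and corepressors, among them the Mastermind genes, ranged from -0.32 to 0.25 on replicate 1 and from -0.51 to 0.32 on replicate 2, with 3 higher and 3 lower. Spen, a corepressor partner of RBPJ, had 0.22 and 0.18, and Rita1, which exports RBPJ from the nucleus, had -0.01 and -0.51. The 10 genes of receptor turnover, among them Numb and the Deltex genes, ranged from -0.17 to 0.39 and from -0.46 to 0.36, with 1 higher and 2 lower, and the widest swing was that of Dtx3 (0.39 and -0.46). The 8 noncanonical ligands ranged from 0.032 to 0.58 and from -0.63 to 0.92, with 3 higher and 0 lower. Cntn1, a neuronal adhesion molecule, had 0.47 and 0.92, and Dlk1, a Delta-like protein without the receptor-binding domain of the canonical ligands, had 0.58 and -0.63. Of the markers of neural crest, glia and neurons, 10 of 11 were higher on both arrays, where 15.4% of all probes tested were. None passed the limma test after adjustment. Their medians were 0.63 and 0.70. Summed signals were 64784 against 38586 in the male pair and 36008 against 28267 in the female pair. All of these markers were bright enough to be tested. Dll1 and Dll3 were higher in the female pair alone in the main analysis. The 8 genes of nephron and ureteric bud had medians of -0.019 and 0.17, with 3 higher and 1 lower on both arrays and 4 of opposite sign. The part of either list in the values of Cntn1, Dll1 and Dll3 was not tested.

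**Figure D4:**
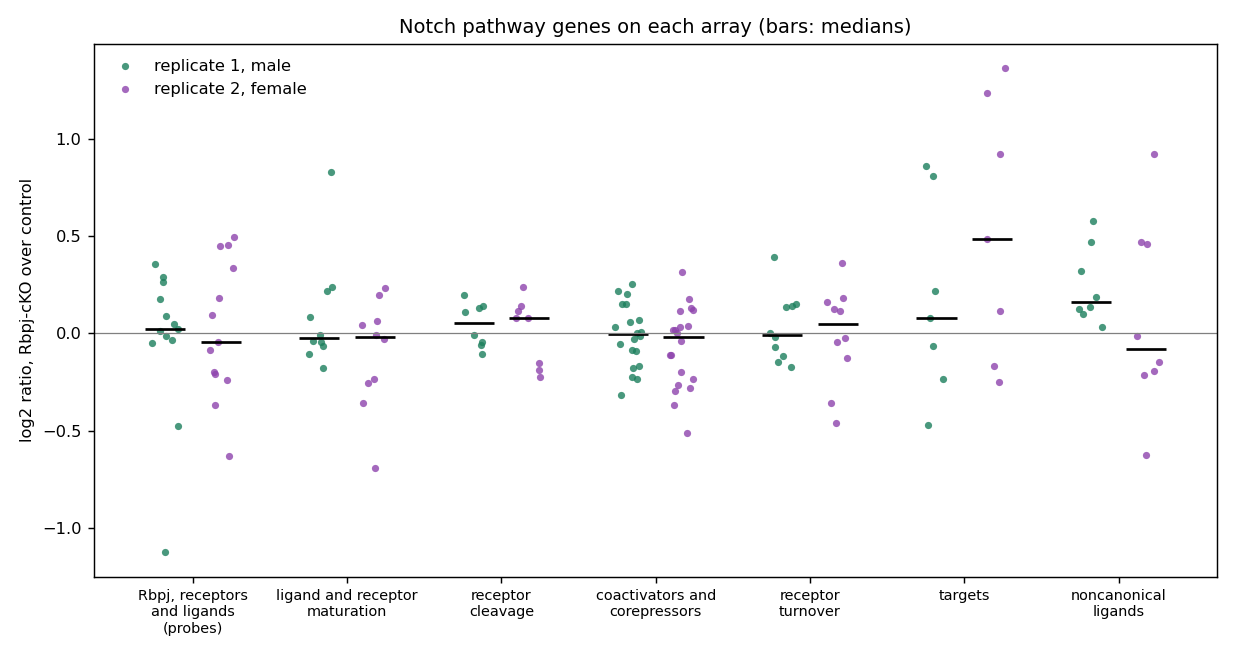
log2 ratio of Rbpj-cKO over control for the 13 tested probes of Rbpj, receptors and ligands and for 63 further pathway genes in 6 lists, with replicate 1 in green, replicate 2 in purple and black bars for the medians. Medians lie near 0 in most lists, and the target list has medians of 0.077 and 0.48.

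Promoters of the members were searched for the core of the RBPJ binding site, TGGGAA, on both strands, in windows from 250 bases before to 50 after each annotated start (RefSeq, GRCm38.p6). All 10 members had a window, 12 in all. The Rbpj promoter alone held the motif, while 28.3% of 27025 genes had it in at least 1 window of this length. The Rbpj sites are shown because they lie in the promoter of the targeted gene, with the motif or its reverse complement in capitals, at chr5:53590197-53590202 and chr5:53590281-53590286 on the plus strand, 149 and 65 bases before the first of its starts.
Rbpj promoter, first site: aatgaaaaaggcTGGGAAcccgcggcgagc
Rbpj promoter, second site: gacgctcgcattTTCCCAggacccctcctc
A match of letters is a description, and its absence from the other windows says only that these letters are not in them.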

How the data were processed

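Ureter RNA of 4 samples was measured on 2 arrays, with 150 ng of RNA per labelling per the labels' protocols. Each spot's mean and local background intensity was deposited on a linear scale without normalization, per the file headers. The processed intensity used for levels was background-subtracted, detrended and dye-normalized by Agilent Feature Extraction 10.7.3.1, per the file headers and the submitters' processing notes, and the deposited log10 ratio is red over green of it. The other deposited values used are flags of 0 or 1. A table of the whole series, also deposited by the authors, has other values that are never between -1 and 1 and have a median of 1. Read as a signed fold of Rbpj-cKO over control, it correlated with the turned processed ratios (r = 0.781 and 0.849 across probes), and it was used as an alternative only, with its method unknown. Probe coordinates are on mm9.

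Ratios came from normexp background correction (offset 50) and loess within each array, with control spots at weight 0, in limma 3.58.1 under R 4.3.3. Outlier spots (3.57% and 3.90%) were dropped, none was saturated, and up to 4 spots were averaged per probe. The sign was turned on replicate 2, where Rbpj-cKO is green. Probes with at least 2 spots well above background in a channel on each array were tested per probe, against 0, with lmFit and eBayes (two-sided, Benjamini-Hochberg over 26980 probes, 1 residual and 6.19 prior degrees of freedom). Levels set across arrays use loess and Aquantile, and are open to dye bias within a sex. Precision is limited by the number of arrays. In pathway and marker lists the brightest probe stands for a gene. The same steps were run on simulated spots with known ratios, and the size of the estimates was checked for the brighter probes only. That run does not bear on the size of ratios of dim probes or on the opposite directions of the 2 arrays.

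Named genes are all members, pathway genes past 1.5-fold in both pairs in 1 direction, Hes1, Hey1, Heyl and Nrarp, the markers Tbx18, Pecam1, Cdh5 and Acta2, and the 3 genes nearest to Rbpj, without clone or accession names. Cntn1, Dlk1, Dtx3, Neurl1b, Hes5, Spen, Rita1, Myocd, Cnn1, Actg2 and Tagln were named after their values were seen. Members and lists were chosen with earlier results of these data known. The alternatives changed the offset, the background and normalization, the outlier spots, the spot average, the variance model, the filter and the unit of the fit.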

Additional observations from a re-analysis of the deposited data

Results flagged for a closer look

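Of the 13 probes tested, 8 had ratios of opposite sign in the male and the female pair, with 1 array each, so these differences were not tested. Sex and dye orientation cannot be told apart in them. The sign was the same in 38.5% of these 13 probes and in 31.0% of all probes tested, so the count gives no result about the members. Male minus female, the log2 ratios differed by 0.11 and 0.22 for the Notch2 probes, 0.25 for Notch4, 0.30 for Jag2 and 0.25 for Dll4. The difference was -0.50 for Dll1 and -0.53 and -0.35 for the Dll3 probes. Outside the comparisons, female Rbpj-cKO had a signal of 123 for the Y-linked gene Ddx3y and 214 for Eif2s3y, above the female control at 2.12 and 11.6.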

How the results depend on the processing

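Rbpj stayed lower on both arrays with either probe in the main analysis and in the 6 alternative computations of the ratios (keeping outlier spots left its ratios as they were), and its brighter probe had means from -0.90 to -0.88 over both arrays, -0.63 without replicate 1 and -1.13 without replicate 2. The dimmer Rbpj probe had means from -0.57 to -0.42 over both arrays. The limma adjusted p of the brighter Rbpj probe ranged from 0.301 to 1. Jag1 and the brighter Notch1 probe were higher on both arrays in 7 of these 7 settings, the main one included, and Notch3 in 6. Dll4 was lower on both arrays in 4 of 7. No member had a limma adjusted p under 0.05 in any setting. Counts over all probes moved as follows, and the cause was not tested. With an adjusted p under 0.05 there were 8 probes at offset 10, 3 with processed signals and 10 with a trended, robust variance, against 0. At an unadjusted p, median centring gave 58 lower and 149 higher against 137 and 331. At least 1.5-fold on both arrays were 34 lower and 74 higher with processed signals and 33 and 75 with the authors' deposited table, against 15 and 28. Without the filter on dim probes, 7013 probes were lower and 6941 higher on both arrays of 39429 probes, against 4195 and 4163 of 26980. The count rules need both arrays, so they have no value without a replicate. Dim probes, those with signals near 10 or below, limit what the second probes of Notch1 and Dll1 can show.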
